A study of Mus musculus with 10 samples.

Results

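The p38 MAP kinase pathway was described in the gastrocnemius muscle (GAS) of diet-induced obese (DIO) mice through 10 genes out of the 21098 genes in the count table. These are the 4 p38 kinases (Mapk14, Mapk11, Mapk12 and Mapk13), their activating kinases Map2k3 and Map2k6, the downstream kinases Mapkapk2, Mapkapk3 and Mapkapk5, and the phosphatase Dusp3. The members were taken by symbol and were selected on results of the same ASO against CTRL contrast, so their differences between the groups are given as a description without a test. Bulk RNA was sequenced in 5 libraries of wild-type male C57BL/6J mice on a high-fat diet (HFD, D12492i) that had 14 weeks of weekly subcutaneous injections of an antisense oligonucleotide against miR-22 (ASO, labelled RES-010) at 10 mg/kg, and in 5 libraries of mice on the same diet injected with saline (CTRL, labelled as vehicle). All mice were 30 weeks old. Both groups share the genotype, the diet and the injections, and no oligonucleotide of unrelated sequence was given, so an effect of receiving any oligonucleotide and an effect of blocking miR-22 cannot be told apart.

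The p38 kinases are stress-activated protein kinases that are switched on when MAP kinase kinases phosphorylate their activation loop. Active p38 phosphorylates transcription factors and a second tier of kinases, and dual-specificity phosphatases reverse the activation. In skeletal muscle, p38 signaling is known for its part in myoblast differentiation, through factors of the MEF2 family, and in the response to exercise and inflammatory stress. These are functions of phosphorylated proteins, and the counts below are levels of RNA.

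Since the oligonucleotide is directed against miR-22, the mature miRNA and the places in the members' 3′UTRs that match its seed are shown first. In the RefSeq entry (GRCm38.p6, chr11:75463772-75463793, plus strand), the seed, bases 2 to 8, is in capitals.
mmu-miR-22-3p: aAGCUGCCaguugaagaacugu
The DNA match to this seed, GGCAGCT, was searched on the sense strand in the longest 3′UTR of a protein-coding transcript of each gene (GENCODE M39, GRCm39). It was found in 3 of 10 members, once each, and in 21.7% of the 7781 tested genes with such a 3′UTR. The windows below have the match in capitals and are written 5′ to 3′.
Map2k3, chr11:60842966-60842988, plus strand: cgcttctgaagagcaGGCAGCTg
Mapk14, chr17:28966599-28966621, plus strand: ggtcccccaccccccGGCAGCTt
Mapkapk3, chr9:107133413-107133435, minus strand: aggaaaaagcaggcaGGCAGCTc
The match in Mapk14 lies past the end of its Ensembl canonical transcript and is in the 3′UTR of another transcript. The match in Mapkapk3 lies in bases that code for protein in the Ensembl canonical transcript and are 3′UTR only in another transcript. The 7 other members, among them Dusp3, Mapkapk5, Mapk12 and Mapkapk2, hold no match in this window. Neither Mir22 nor its host transcript Mir22hg has a segment in the table, so the target of the oligonucleotide could not be checked in these libraries.

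Each value in the table is the number of read pairs on a segment of up to 500 bp near the end of a transcript, and a gene's value is the sum over its segments. The libraries hold 1606909 to 2116720 counts in CTRL and 2239186 to 2632560 counts with the ASO. Every ASO library is deeper than every CTRL library, so the design does not separate depth from treatment. A fit with all libraries drawn down to the smallest one is given at the end. Levels are given in CPM, which is the count as a rate per library after TMM scaling of the library size. Of the 10 skeletal muscle markers examined, Acta1 and Ckm were the most abundant, and 3 (Tnnt3, Mylpf and Mb) had no counts in any library. The summed level of these markers was 45830 to 87509 CPM in CTRL and 92857 to 149089 CPM with the ASO. Past the threshold as higher were 4 of 6 tested markers, beside 11.8% of all tested genes. Calls over all genes also went with the counted position, as described below. Summed macrophage markers spanned 193 to 1197 CPM in CTRL and 56.6 to 458 CPM with the ASO, with Adgre1 and Cd163 at 0. Called lower was 1 of 4 tested markers, beside 17.4% of all tested genes, and among these only Cd68 had a positive value (log2 0.26). Summed adipocyte markers spanned 843 to 13266 CPM and 714 to 3619 CPM, and summed fibroblast markers 190.1 to 340.4 CPM and 38.2 to 256 CPM. Among fibroblast markers 1 of 3 tested, Lum, was lower, while Col3a1 (log2 −1.18) and Col1a1 (0.36) did not pass the threshold. The summed levels of macrophage, adipocyte, fibroblast, endothelial, Schwann cell, blood and satellite cell markers all overlapped between the groups. The part of these marker differences in the values below was not tested. In a bulk sample, fewer cells of a type cannot be told apart from less RNA per cell.

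Mapk14 and Dusp3 had the largest differences among the members, and both were lower with the ASO. Mapk14 encodes p38α, the most widely expressed p38 kinase and the form best known from muscle differentiation. Its level in the 5 CTRL libraries was 84.4, 102.6, 94.9, 145 and 140 CPM, and in the 5 ASO libraries it was 26.1, 26.8, 10.6, 21.3 and 14.6 CPM. The highest ASO library was below the lowest CTRL library, and the CTRL mean of 113 ± 27.4 CPM was 5.71 times the ASO mean of 19.9 ± 7.11 CPM (SD, n = 5 each). On the log2 scale the difference was −2.51 with a standard error of 0.26. Its CTRL libraries held 179 to 249 counts each and its ASO libraries, although deeper, 25 to 63.

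Dusp3 encodes a small dual-specificity phosphatase of MAP kinases, also called VHR, which acts on ERK and JNK and, in some settings, on p38. Its CTRL libraries had 98.1, 134, 171, 196 and 221 CPM, and its ASO libraries had 45.9, 37.8, 27.9, 37.6 and 34.4 CPM. The groups did not overlap, and the log2 difference was −2.16 ± 0.22 (SE). The CTRL values of Dusp3 were spread over a wider range than its ASO values.

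Mapkapk5, also called PRAK, is a kinase downstream of p38 and of the atypical MAP kinases ERK3 and ERK4. Its levels were 78.3, 76.0, 57.8, 79.7 and 92.7 CPM in CTRL and 56.0, 50.6, 20.3, 38.4 and 38.7 CPM with the ASO. The lowest CTRL library was only just above the highest ASO library, and the log2 difference was −0.91 ± 0.23 (SE).

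Mapk12 and Mapkapk2 were higher with the ASO. Mapk12 encodes p38γ, the p38 kinase that is enriched in skeletal muscle. It had 480, 435, 310, 524 and 492 CPM in CTRL and 597, 759, 751, 645 and 775 CPM with the ASO. The lowest ASO library was above the highest CTRL library, the means were 448 ± 83.5 and 705 ± 79.4 CPM (SD, n = 5 each), and the log2 difference was 0.65 ± 0.16 (SE). When only the most distal counted segment of every gene was kept, the value for Mapk12 was 0.42 and no longer past the threshold, although its own counts are the same in that fit.

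Mapkapk2, or MK2, is the main kinase through which p38 acts on the stability of inflammatory mRNAs and on the heat shock protein HSPB1. It had 530, 399, 295, 350 and 303 CPM in CTRL and 644, 567, 797, 769 and 860 CPM with the ASO. The means were 375 ± 96.0 and 727 ± 119 CPM (SD, n = 5 each), the groups did not overlap, and the log2 difference was 0.95 ± 0.19 (SE). Skeletal muscle markers moved with these increases, and their part was not tested.

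The other members were closer between the groups. Map2k3, which activates the p38 kinases as MKK3, had 33.1 to 54.3 CPM in CTRL (median 43.4) and 45.7 to 64.2 CPM with the ASO (median 59.9), a log2 difference of 0.39 ± 0.16 (SE). Its groups overlapped. Map2k6, the other activator (MKK6), had 56.6 to 92.7 CPM in CTRL and 45.7 to 88.2 CPM with the ASO, and its log2 difference of −0.08 ± 0.19 (SE) changed sign with upper quartile scaling.

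Mapk11, which encodes p38β, was low, with 2.83 to 10.1 CPM in CTRL and 4.59 to 11.9 CPM with the ASO. It rests on 6 to 28 counts per library and had a log2 difference of 0.32 ± 0.35 (SE). Mapk13, which encodes p38δ, had 1 count in all 10 libraries together, which is under the floor of 3 counts per library, and it was not tested. Mapkapk3, a close relative of Mapkapk2, had 84.4 to 122 CPM in CTRL and 75.9 to 113 CPM with the ASO, a log2 difference of −0.14 ± 0.15 (SE).

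**Figure D1:**
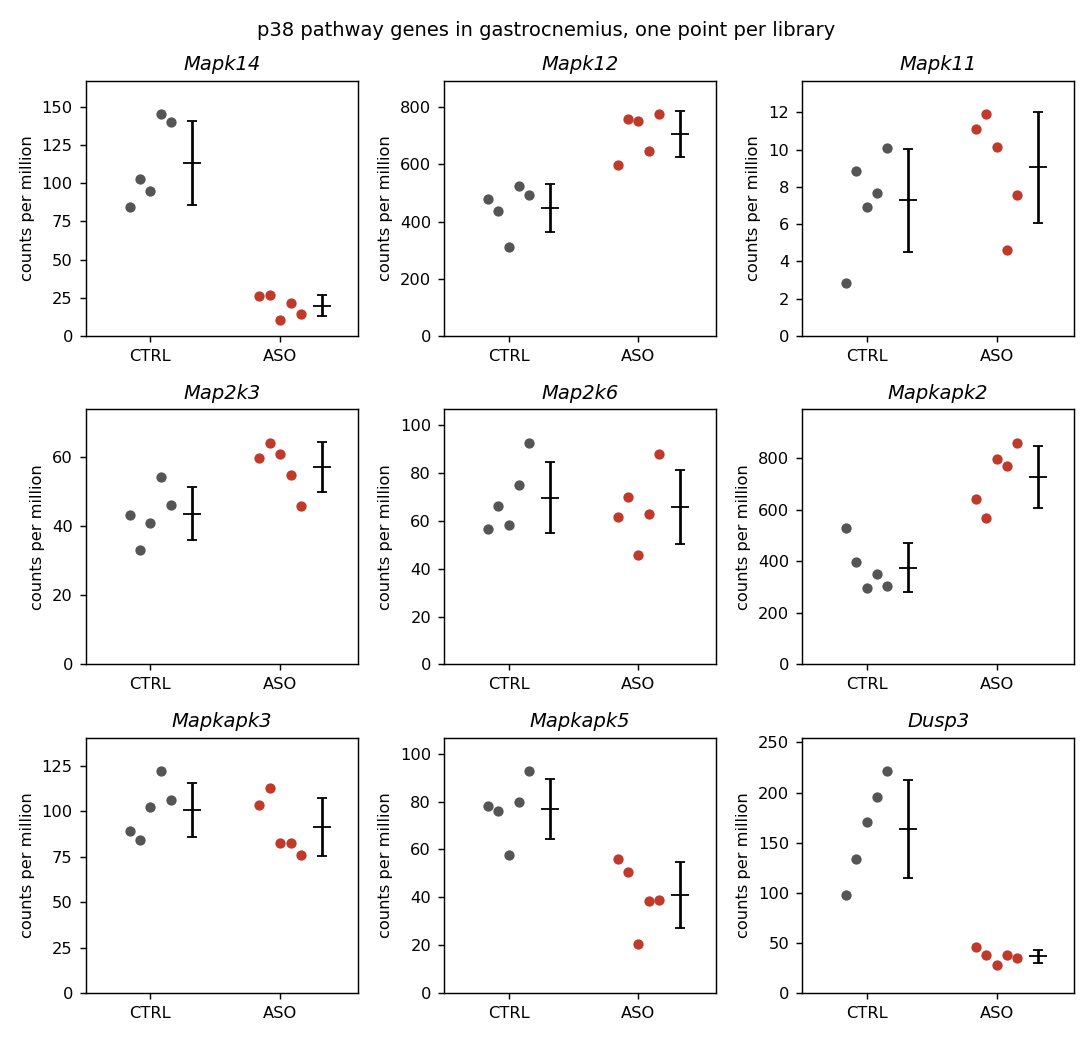
Levels of the 9 tested p38 pathway genes in CPM after TMM scaling (linear axes from 0), with one point per library for 5 CTRL and 5 ASO libraries and bars for the mean ± SD. Mapk14, Dusp3 and Mapkapk5 are lower in every ASO library than in any CTRL library, and Mapk12 and Mapkapk2 are higher in every ASO library.

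In the fit over 7813 genes, 3 of 9 tested members were called lower and 2 were called higher at an adjusted p-value of 0.05, where 17.4% of all tested genes were called lower and 11.8% higher. The same 3 members had ASO libraries entirely below CTRL and the same 2 entirely above, where 13.4% and 7.97% of all tested genes were so. The median log2 difference was −0.08 over the 9 tested members and −0.03 over all tested genes. Since the members were chosen on this contrast, nothing is read from these counts. The calls over all genes were 1363 lower and 920 higher, and this split depends on the scaling, with 1819 lower and 528 higher for total counts and 1206 lower and 1262 higher for upper quartile scaling. Under each of these scalings, the directions of the 5 called members were kept.

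The shares of the p38 kinase genes in their summed counts were different in the 2 groups. Of the summed counts of the 4 kinase genes, Mapk14 made up 14.9%, 18.8%, 23.0%, 21.4% and 21.8% in CTRL and 4.11%, 3.35%, 1.37%, 3.17% and 1.83% in ASO libraries. The groups were far apart, with means of 19.98% ± 3.25 and 2.77% ± 1.13 (SD, n = 5 each). Mapk12 took most of the rest, from 75.3% to 84.6% in CTRL and from 94.1% to 97.3% with the ASO. The share is made of counts on different kinds of segments, as described next, and is not a share of molecules. Mapk14 was counted upstream and Mapk12 at the 3′ end, and the part of counted position in this difference was not tested.

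**Figure D2:**
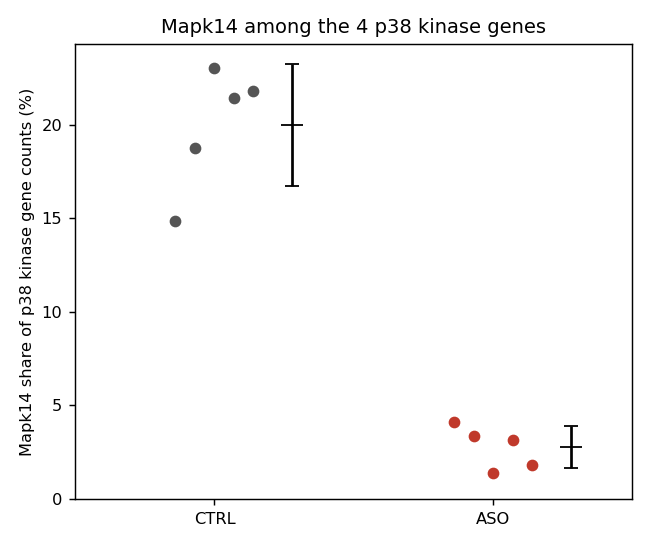
Share of Mapk14, in percent, in the summed counts of Mapk11, Mapk12, Mapk13 and Mapk14, one point per library for 5 CTRL and 5 ASO libraries with the mean ± SD. CTRL libraries lie between 14.9% and 23.0% and ASO libraries between 1.37% and 4.11%.

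The members were not counted at the same place along their transcripts. They have 33 segments in the table, of which 15 have any count. Mapk12 (chr15:89014787-89015286), Mapk11 (chr15:89026690-89027189) and Mapkapk2 (chr1:130981437-130981936) each have a single minus-strand segment, the final 500 bp of the canonical transcript, all of it 3′UTR. The segment of Mapk12 overlaps the span of an annotated lncRNA on the opposite strand, Gm62406, and no strand option is named for the counting. Map2k3 was counted on chr11:60843121-60843620 (plus strand), of which 17 bases are shared with no other segment. These are its first 17 bases, on the side away from the 3′ end. The segment of the canonical transcript, chr11:60843138-60843637, had no counts.

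Mapk14 had 96.7% of its counts on chr17:28964875-28965374 (plus strand), which ends 2006 bp upstream of its most distal segment. Of these 500 bp, 370 lie outside the exons of the transcript that defines the segment, and the 130 exonic bases are the start of a terminal exon, 65 of them coding in other Mapk14 transcripts. Whether reads from the intron were counted there is not known. The canonical transcript of Mapk14 uses another terminal exon and ends before this segment. The other 3.28% of its counts were on a segment 7242 bp upstream of the distal end, and 4 of its 7 segments have no base of their own and no counts. The match to the miR-22 seed lies downstream of both counted segments.

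Dusp3 was counted on chr11:101864295-101864378, 84 bp in the 3′UTR of the canonical transcript, and on chr11:101865542-101865641, 100 bp with 79 coding bases and 21 bases of 3′UTR. These minus-strand segments end 2326 and 3573 bp upstream of the most distal end and hold 50.7% and 49.1% of its counts. Considered one by one, the nearer segment had a log2 difference of −1.71 ± 0.21 and the farther one −2.61 ± 0.29 (SE), and the groups did not overlap on either. The final 500 bp of Dusp3 is held by 4 segments that overlap completely and have no counts.

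Mapkapk5 was counted only on chr5:121671186-121671685 (minus strand), 8085 bp upstream of its most distal end. This segment comes from a transcript annotated for nonsense-mediated decay and holds an 81-base coding exon of the canonical transcript, with 233 bp outside the exons of its own transcript, where it is not known either whether intronic reads were counted. The segment also overlaps the span of Gm42878, an annotated protein-coding gene on the same strand. The counts of Mapkapk5 therefore cannot be told apart from any of this overlapping gene. Map2k6 had 99.7% of its counts on the last 500 bp of its canonical transcript (chr11:110403968-110404467, plus strand), which lies 11881 bp upstream of a farther annotated end with 4 counts in all.

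Mapkapk3 was counted on both kinds of segment, and their values had opposite signs. On the last 500 bp of its canonical transcript (chr9:107132126-107132625, minus strand), the CTRL libraries had 56.2, 53.6, 64.8, 74.6 and 62.1 CPM and the ASO libraries had 86.0, 92.4, 75.1, 73.3 and 65.4 CPM. On 143 bp at the end of its coding sequence (chr9:107133382-107133524), 1256 bp upstream, the CTRL libraries had 31.6, 29.3, 37.6, 47.0 and 44.6 CPM and the ASO libraries had 18.0, 20.9, 11.6, 12.1 and 12.01 CPM. The groups overlapped on the distal segment, with a log2 difference of 0.33 ± 0.15, and did not overlap on the upstream one, with −1.34 ± 0.22 (SE). The sum of the segments, which was −0.14, therefore holds a difference of each sign.

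The log2 ratio of distal to upstream counts in Mapkapk3, with 0.5 added to each count, had a mean of 0.72 ± 0.16 over CTRL and of 2.41 ± 0.23 over ASO libraries (SD, n = 5 each). The same ratio was computed for the 1471 genes with at least 50 counts on segments within 100 bp of their most distal end and at least 50 counts on segments 1000 bp or more upstream. Its median over these genes was highest at 0.42 among CTRL libraries and lowest at 1.18 among ASO libraries. The ratio was higher with the ASO in 88.6% of these genes, by a median of 1.37, and the difference of 1.69 in Mapkapk3 was exceeded in 596 of them. A shift of this kind was therefore present across genes and was not particular to Mapkapk3.

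**Figure D3:**
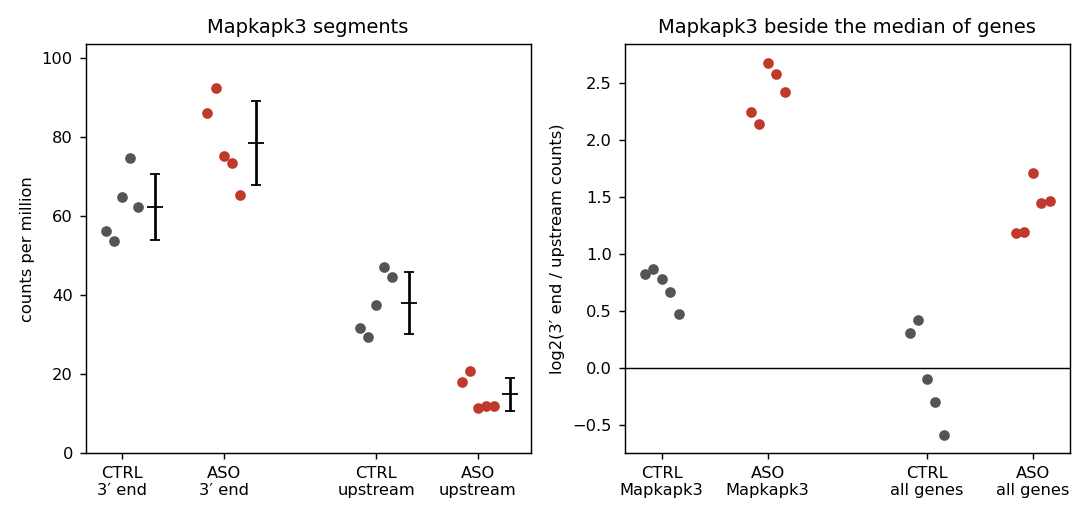
Left, CPM on the 2 segments of Mapkapk3, at the 3′ end and 1256 bp upstream, one point per library with the mean ± SD (5 CTRL, 5 ASO). Right, the log2 ratio of 3′ end to upstream counts in each library for Mapkapk3 and as the median of 1471 genes, where every ASO library lies above every CTRL library.

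The tested genes were divided, after the members' values had been seen, by where their counts lie. In 3534 genes at least 90% of the counts were on segments that end within 100 bp of the most distal segment end. In 1256 genes at least 90% were on segments that end 1000 bp or more upstream of it. Of the genes counted at the 3′ end, 4.70% were called lower and 19.4% higher, with a median log2 difference of 0.22. Of the genes counted upstream, 40.8% were called lower and 5.65% higher, with a median of −0.50. The other 3023 genes fell in neither class, and 684 of them were called lower and 162 higher, with a median of −0.21. Direction and counted position therefore moved together over the whole table, and the cause was not tested.

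The values of the members in these classes had the sign of this division, but those of Mapk11 and Map2k6 were smaller than their standard errors. Of the 4 members classed as counted at the 3′ end (Mapk11, Mapk12, Mapkapk2 and Map2k3), 2 were called higher, and all 4 had positive values. Map2k3 is in this class by the end of its segment, although its 17 unshared bases lie at the upstream start of it. Of the 4 tested members counted upstream (Mapk14, Dusp3, Mapkapk5 and Map2k6), 3 were called lower. Map2k6 is the one among these whose counts lie at the end of the canonical transcript, and its value was close to 0. Mapk14 was lower than most genes of its kind, with 58 of the 1256 genes counted upstream at a more negative value, and Dusp3 had 101 below it. Mapkapk5 was nearer the middle, with 421 genes below it. Mapkapk2 was exceeded by 182 of the 3534 genes counted at the 3′ end, and Mapk12 by 580. The members were chosen on this contrast, so nothing is read from these places. No segment at the 3′ end of Mapk14, Dusp3 or Mapkapk5 was counted, so for these 3 genes the level at the annotated 3′ end is not known here.

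**Figure D4:**
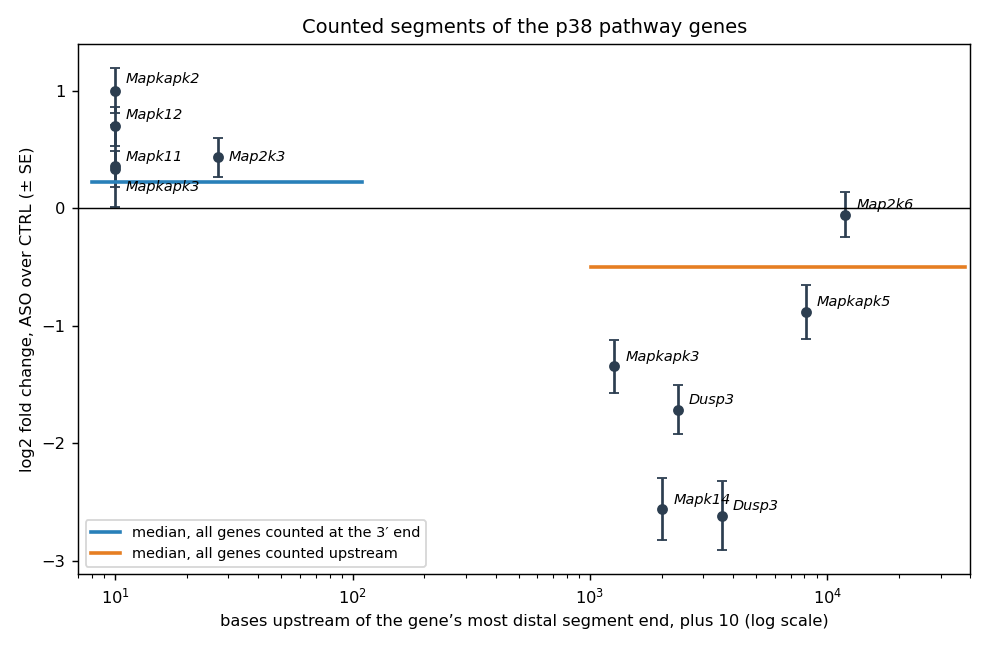
Log2 difference (ASO over CTRL, ± SE) of each tested segment of the members against its distance in bases upstream of the gene's most distal segment end (plus 10, log axis), with the median log2 difference of all genes counted at the 3′ end (0.22) and of all genes counted upstream (−0.50) as lines. Segments that end within 100 bp of the most distal end lie above 0, and the farther segments lie below 0.

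Levels were compared between genes as CPM per kb of the unshared bases, introns included, of segments with at least 1% of a gene's counts. In CTRL the order was Mapk12 (897 ± 167), Dusp3 (891 ± 266), Mapkapk2 (751 ± 192), Mapkapk3 (157 ± 23.2), Mapkapk5 (154 ± 24.98), Map2k6 (139 ± 29.5), Mapk14 (125 ± 30.3) and Mapk11 (14.6 ± 5.53) CPM per kb (SD, n = 5). The first 3 overlapped in their ranges, the next 4 overlapped with their neighbours, and Mapk11 was below all others. With the ASO, Mapkapk2 (1455 ± 239) and Mapk12 (1411 ± 159) were highest and overlapped, and Dusp3 (199.6 ± 35.3), at rank 3, was separated from them. Mapk14 (21.9 ± 7.84) then lay next to Mapk11 (18.1 ± 5.97), with overlapping ranges. Map2k3, counted on few bases of its own, and Mapk13 were left out of this order. Dusp3 rests on 184 bases in 2 short segments, of 84 and 100 bp, and Mapk12 and Mapkapk2 on 500 each. Whether a level per kb on such short segments compares with one on 500 bp was not tested, so the place of Dusp3 is uncertain. The place of Mapk14 and Mapkapk5 depends on which bases are taken, a comparison added after the values were seen. Over exonic bases alone, the CTRL level was 212 ± 51.2 CPM per kb for Mapk14 and 288 ± 46.8 for Mapkapk5, and over the 130 exonic bases of its main segment Mapk14 was at 848 ± 208 (SD, n = 5), near Mapk12.

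The genes whose level followed Mapk14 most closely over the 10 libraries, by Pearson's r of log2(CPM + 1), were Nrep, the calcium sensor gene Stim1, Ptcd3, the ubiquitin ligase gene Mgrn1 and Erc1, each with r = 0.99. Of these, 4 are counted upstream and Mgrn1 falls in neither class. The lowest r were −0.99 for the tRNA synthetase gene Gars1 and the ribosomal protein genes Rpl11 and Rpl24, all of them counted at the 3′ end. Among the members, Dusp3 (0.98) and Mapkapk5 (0.91) had the highest r with Mapk14 and Mapkapk2 (−0.93) the lowest. The libraries form 2 separate groups and share their depth and position shift, so these are descriptions of the same group difference.

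The wider p38 network was taken as 78 listed genes that are upstream regulators, substrates and targets, or other phosphatases, of which 50 were tested. Of these 12 were lower and 6 higher with the ASO, with a median log2 difference of 0.07, beside 17.4% lower and 11.8% higher over all genes. ASO libraries were entirely below CTRL for 11 of the 50 and entirely above for 3, beside 13.4% and 7.97% of all tested genes. Among the network genes, 6 of 14 counted upstream were lower and 1 higher, and 2 of 20 counted at the 3′ end were lower and 3 higher. Of the 16 in neither class, 4 were lower and 2 higher.

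Of 19 tested upstream regulators, 3 were lower and 4 higher, beside 17.4% and 11.8% of all tested genes. The lower ones were the MAP kinase kinase kinase Map3k3 (log2 −1.03 ± 0.19, SE), counted at the 3′ end, the scaffold gene Ccm2 (−1.01 ± 0.32) and Map2k4 (−0.78 ± 0.16), which encodes MKK4, an activator of JNK and p38. The higher ones were Gadd45g (0.83 ± 0.29), a stress-induced activator of MAP3K4, Map3k10 (0.75 ± 0.20), the TAK1-binding adaptor Tab2 (0.66 ± 0.19) and the small GTPase Rac1 (0.51 ± 0.13). Rac1 was higher although it was counted upstream.

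Of 22 tested substrates and targets, 7 were lower and 2 higher, beside 17.4% and 11.8% of all tested genes. Of the 7 lower ones, 4 were counted upstream, where 40.8% of all genes were lower, and 3 fell in neither class. Mef2c, a transcription factor of muscle differentiation, was the lowest at −3.04 ± 0.31 (SE), while Mef2a (−0.30 ± 0.16) and Mef2d (−0.10 ± 0.13) did not pass the threshold. The transcription factors of the CREB and ATF family Atf2 (−1.43 ± 0.28), Creb1 (−1.26 ± 0.26) and Atf1 (−1.19 ± 0.20) were also lower, together with the scaffold gene Dlg1 (−1.12 ± 0.18), the kinase gene Rps6ka5 (−1.09 ± 0.27), which encodes MSK1, and the RNA-binding protein gene Zfp36l1 (−0.43 ± 0.14). Mef2c, Atf2, Creb1 and Dlg1 were counted upstream. The higher ones were the transcription factor gene Elk4 (0.57 ± 0.13) and the kinase gene Eef2k (0.55 ± 0.17). Hspb1, the heat shock protein phosphorylated through MK2, was at 0.63 ± 0.23 and Ppargc1a, the coactivator PGC-1α, at −0.04 ± 0.21, and neither passed the threshold.

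Of 9 tested phosphatases other than Dusp3, 2 were lower, beside 17.4% of all tested genes. Dusp16, counted upstream, was at −3.29 ± 0.45 (SE), and Dusp10, counted at the 3′ end, at −0.57 ± 0.19. Both act on JNK and p38. Dusp1, the inducible phosphatase best known for acting on p38, had no counts in any library. Of the 28 network genes that were not tested, 2 had ASO libraries entirely below CTRL and are named after their values were seen. These were the arginine methyltransferase gene Carm1, with a mean of 8.96 CPM in CTRL and 0.083 CPM with the ASO, and the phosphatase gene Dusp4, with 6.19 and 0.69 CPM. In both the ASO libraries had 0 to 3 counts. The share of all untested genes with such a separation was not computed, so nothing is read from these 2.

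The genes of the ERK and JNK branches were set beside the p38 members as the most similar cascades. Of 22 listed genes 13 were tested, of which 4 were lower and 2 higher, with a median log2 difference of −0.04, beside 17.4% lower and 11.8% higher over all genes. The kinase genes Mapk9 (−1.29 ± 0.27, SE), Mapk3 (−0.85 ± 0.27) and Mapk8 (−0.65 ± 0.15) were lower, where Mapk3 encodes ERK1, and Mapk8 and Mapk9 encode JNK1 and JNK2. The activator Map2k7 (−1.55 ± 0.32), which encodes the JNK kinase MKK7, was lower as well, and Map2k2 (0.80 ± 0.17), which encodes MEK2, was higher. The ERK phosphatase gene Dusp7 (0.50 ± 0.17) was higher. Within this list 1 of 2 genes counted upstream was lower and 1 higher, and of 4 counted at the 3′ end 1 was higher. The 7 others fell in neither class, and 3 of them, Mapk3, Mapk8 and Mapk9, were lower. Over the whole table, 684 of the 3023 genes in neither class were lower. The difference between the p38 members and these branches was not tested, since the members were chosen on the contrast.

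**Figure D5:**
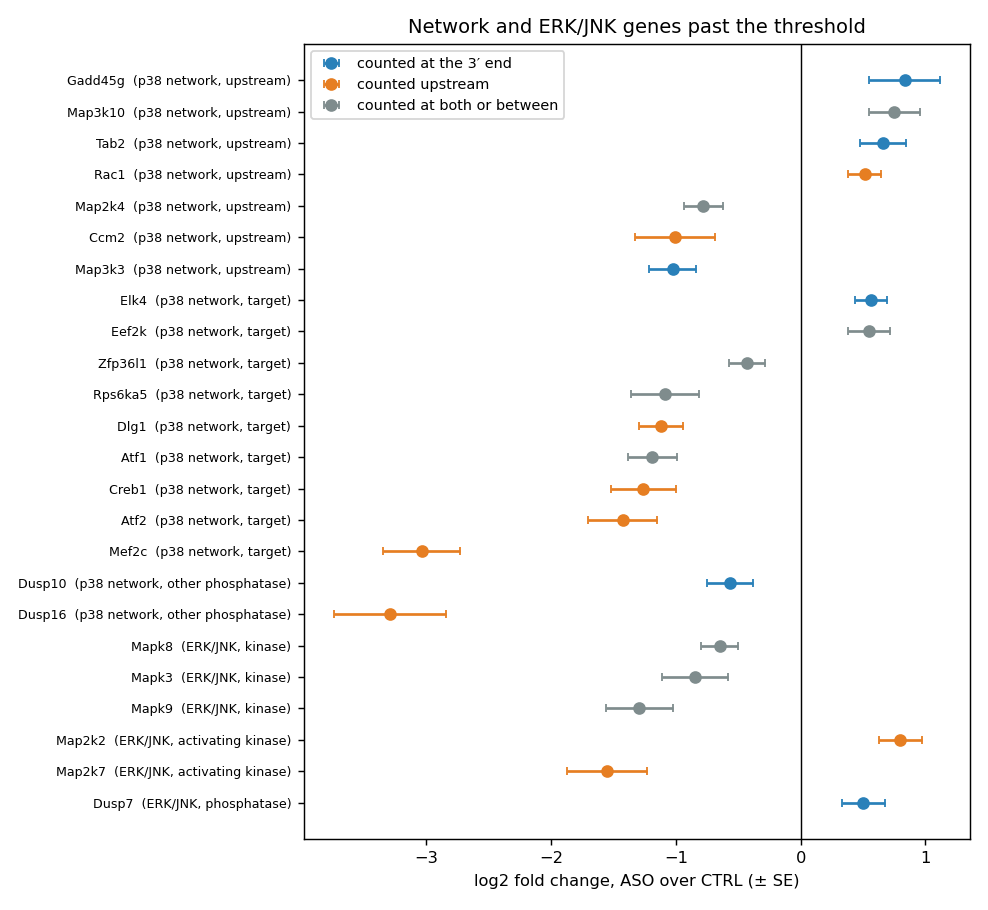
Log2 difference (ASO over CTRL, ± SE) of the 18 network genes and 6 ERK and JNK genes past the threshold, by role, colored by whether they were counted at the 3′ end, upstream, or at both or between. Mef2c and Dusp16 lie lowest, and the genes counted upstream are mostly below 0, with Rac1 and Map2k2 above it.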

How the data were processed

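The authors deposited raw counts of read pairs, for which reads were trimmed (fastp), aligned to GRCm39 (STAR) and counted (featureCounts). The paper names Gencode M25 and the terminal 500 bp of each 3′UTR for the counting. The segment coordinates match GENCODE M39 on GRCm39, and some segments hold coding bases or bases outside exons, as described above. They analyzed them with DESeq2. Of the columns, 10 were used, 5 CTRL and 5 ASO, and 4 were not used here. Segment identifiers were mapped to genes with GENCODE M39; 52361 of 52423 matched, and the rest held 0.0197% of the counts. Segments were summed per gene.

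Genes were tested with edgeR 4.0.16 (R 4.3.3; TMM, filterByExpr by group, quasi-likelihood test, Benjamini-Hochberg adjustment over all 7813 genes, threshold 0.05), and single segments in the same way. Errors of log2 differences are standard errors. The procedures were tested on simulated data. Alternatives were DESeq2 1.42.0, limma-voom (limma 3.58.1), other scalings and filters, leaving out the 20 most abundant genes, the replicate number as a block, the most distal counted segment, equal depth, and leaving out each library. The named genes are all members, every network, ERK or JNK gene past the threshold, and the 5 genes with the highest and 3 with the lowest correlation with Mapk14. Mef2a, Mef2d, Hspb1, Ppargc1a, Dusp1, Dusp4 and Carm1 are outside this rule and were chosen after their values were seen. Some genes of the ERK and JNK list are not reported here and were left out of its counts. The members and lists were chosen with earlier results of these data known. The labels number the libraries without naming the mice, so p-values measure the spread between libraries. Totals of 1606909 to 2632560 counts put the floor of 3 counts at 1.14 to 1.87 CPM, for counting error only. Coordinates are 1-based on GRCm39.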

Additional observations from a re-analysis of the deposited data

How the results depend on the processing

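The count of 3 members lower with the ASO held under all 11 alternatives and with each library left out. For these 3 members the most distal counted segment itself lies upstream. The fit on that segment alone therefore cannot show whether their count depends on counted position. The count of members higher was 1 in place of 2 when only the most distal counted segment of each gene was kept, a fit in which fewer genes were tested, and 2 to 3 with a library left out. In that fit 42 network genes were tested in place of 50, with 7 lower and 2 higher in place of 12 and 6. Of the ERK and JNK genes 10 were tested in place of 13, with 1 lower and 0 higher in place of 4 and 2. At an unadjusted p under 0.05 in edgeR, the one tool run there, 0 of these ERK and JNK genes were higher as well. Over all genes 6075 were tested in place of 7813, with 602 lower and 388 higher in place of 1363 and 920. With total counts in place of TMM, which shifted the median log2 difference of all genes from −0.03 to −0.21, 16 network genes were lower and 3 higher, and with upper quartile scaling 10 were lower and 8 higher. The ERK and JNK genes called higher numbered 1 with limma-voom, with total counts, with no filter on low counts, with a minimum of 10 counts in every library and with the replicate block, and 1 to 2 with a library left out. With a library left out, the lower ones numbered 3 to 4. Network genes numbered 9 to 12 lower and 4 to 7 higher with a library left out.

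The replicate numbers are shared by the groups, but same-numbered libraries did not deviate together (correlations of −0.43 to 0.16 over 5 pairs, with 0 libraries closest to their own number). With the replicate number as a block, 3 members were lower and 2 higher, and 9 network genes were lower and 5 higher. With all libraries drawn down to the smallest one, 3 members were lower and 2 higher. Mapk14 was then at −2.53, Dusp3 at −2.14, Mapkapk5 at −0.88, Mapk12 at 0.64 and Mapkapk2 at 0.96. Map2k6, not past the threshold, was at 0.0057 with upper quartile scaling, at 0.062 without ASO replicate 3, at 0.036 without CTRL replicate 5 and at −0.19 to 0.062 over all libraries left out, and Mapkapk3 was at 0.066 on its most distal segment. Map2k3 passed the threshold as higher with DESeq2 (0.44), upper quartile scaling (0.48) and 3 other settings. The Mapk14 share differed by −17.2 percentage points, and by −18.5 to −16.4 with a library left out. Why these values moved was not tested.

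Depth limits Mapk11 and Mapk13 most, and Mapk14, Dusp3 and Mapkapk5 have no counted segment at their 3′ end.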
